A study of Mus musculus with 2 samples.

Results

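The Dlk1-Dio3 domain is an imprinted region of mouse chromosome 12 that carries a large group of miRNA genes. Of the 696 mouse miRNAs on the array used here, 48 of its mature products were taken as members. The array carried 32 other miRNAs whose hairpins lie in the domain, which are described apart. The members were chosen by name from the miRNAs of the domain on the array, with earlier results of these data known. The rule itself uses no measured value. Imprinted genes are expressed from the chromosome of 1 parent. In this domain the protein-coding genes Dlk1, Rtl1 and Dio3 are expressed from the paternal chromosome, and the long noncoding RNAs Meg3, Rian and Mirg and the miRNAs from the maternal one, under the control of a differentially methylated region between Dlk1 and Meg3. The miRNAs are cut from long maternal transcripts, so that many hairpins can come from shared precursors, and they are known for expression in the embryo, the placenta and the brain. The miRNAs that lie opposite Rtl1, such as mmu-miR-127 and mmu-miR-136, pair perfectly with the Rtl1 transcript and lead to its cleavage.

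Tissue was taken from untreated ICR mouse embryos at E13.5. The 3rd mammary gland (the gland) was compared with the inter mammary gland region (the flank), the body wall that lies between that gland and the next one. Total RNA of each region (100 ng, Cy3 label) was read on 1 Agilent 1-colour array, and both arrays lay on 1 slide and were scanned together. There were no replicates, so no difference was tested, and standard errors (SE) are over the spots of 1 array and are technical only.

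The comparison asks whether the miRNAs of an imprinted domain differed in level between an embryonic mammary gland and the flank beside it. The members were read by 124 probes, printed as 960 spots on each array. After outlier spots were left out, 946 spots remained on the gland array and 945 on the flank array, and 710 of them were well above background on each. A miRNA was counted as detected when more than 50% of the spots of at least 1 of its probes were well above background. By this rule 39 of the 48 members (81.3%) were detected on each array, and they were the same 39 members. Of the 648 other miRNAs of the array, 245 (37.8%) were detected on both. Of the 32 other miRNAs of the domain, which are among the 648, 13 (40.6%) were detected on both. The high share was thus one of the chosen members and not of the domain as a whole. No miRNA named with a star was among the members, while the other miRNAs include such names. Of the 39 detected members, 32 had every spot of every probe above background on both arrays.

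By the same rule the other 9 members were detected on neither array: mmu-miR-380-5p, mmu-miR-412, mmu-miR-485, mmu-miR-493, mmu-miR-544, mmu-miR-667, mmu-miR-668, mmu-miR-679 and mmu-miR-758. Their signals lay between −4.50 and 18.0 in the gland and between −5.27 and 17.3 in the flank. For comparison, the spots of the negative control probes had a mean of 3.48 (SD 4.82) and reached 15.8 on the gland array, and had a mean of 2.23 (SD 5.07) and reached 19.2 on the flank array. No ratio was formed for these 9 members. The scanner software's own call counted 2 of them, mmu-miR-380-5p and mmu-miR-485, as detected on both arrays. The brighter probe of mmu-miR-485 gave 25.1 in the gland and 24.0 in the flank, with 3 and 2 of 10 spots above background. Among them, mmu-miR-380-5p is the opposite arm of a detected member, mmu-miR-380-3p, which gave 534 in the gland and 536 in the flank. Some detected members had averages near the range of the control spots. mmu-miR-540-3p gave 11.6 in the gland and 9.80 in the flank, mmu-miR-665 gave 18.8 and 18.2, and mmu-miR-539 gave 19.5 and 19.0. Each was detected by 1 of its 4 probes, so its ratio averages mostly undetected probes.

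Signals are background-subtracted intensities in arbitrary units, with the gland array multiplied by 0.914 to bring it to the scale of the flank array. Probes differ in how well they bind, so a brighter member is not necessarily a more abundant one. Across the 39 detected members the median signal was 276 in the gland and 291 in the flank. The summed signal of all 48 members was 16881 in the gland and 17078 in the flank, a ratio of 0.988.

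Most members had nearly the same signal in gland and flank. The median log2 ratio of gland to flank over the 39 detected members was 0.01, with quartiles at −0.09 and 0.06. Over the 284 miRNAs of the whole array detected on both arrays, the median was 0.05, with quartiles at −0.14 and 0.22. Of the 39 members, 34 (87.2%) lay within 1.2-fold of equal signal, against 178 of the 284 miRNAs (62.7%). The median SE of a log2 ratio was 0.04 for the members and 0.04 for the 284 miRNAs. No member was higher in the gland by 1.5-fold or more, and 2 members, mmu-miR-134 and mmu-miR-494, were lower by 1.5-fold or more. Of the 312 miRNAs detected on at least 1 array, 3.21% were higher and 9.94% lower by that rule, so that the share of members past 1.5-fold was not above that of the array in either direction.

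The side of 1 on which the members lay depended on the scaling between the arrays. With the scaling used, 21 of the 39 members had ratios above 1 and 18 below. With no scaling 31 were above and 8 below, and when every spot of a probe had to be above background, which also changed the probes used for scaling, 9 of 38 were above and 29 below. No scaling, the 75th percentile of all probes, the median of the detected probes and quantile normalization raised the median of all miRNAs by 0.13, 0.16, 0.12 and 0.12 on the log2 scale. Relative to the median of all miRNAs, a comparison chosen after the data were seen, the median of the members was −0.03 with the scaling used and between −0.09 and −0.02 under the alternatives. The spread between the quartiles of the members was 0.15 with the scaling used, against 0.37 for all miRNAs. After normexp background correction the spreads were 0.13 and 0.22, and 89.7% of the members and 78.9% of all miRNAs lay within 1.2-fold, so the contrast between the members and the array was smaller.

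**Figure D1:**
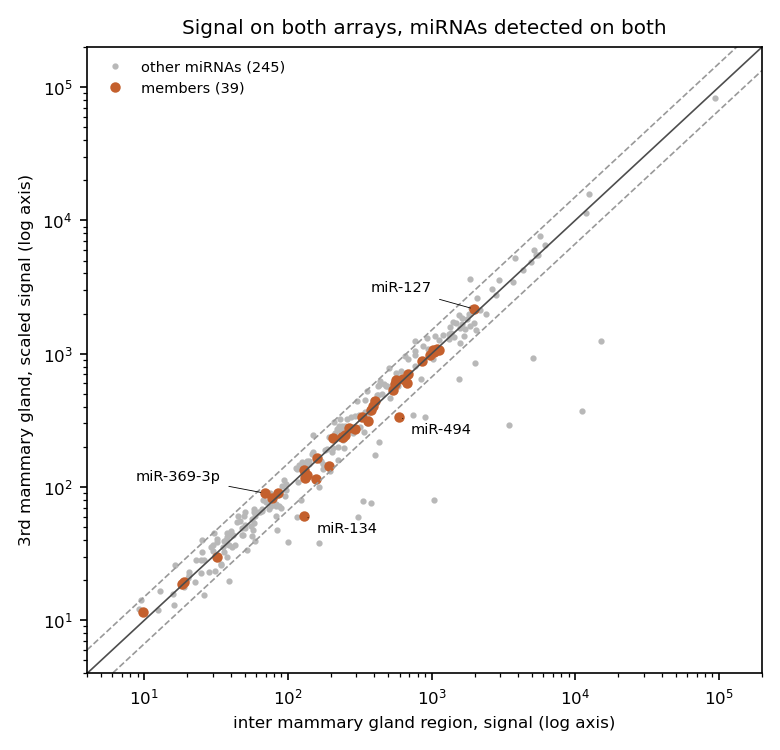
Signal in the 3rd mammary gland, scaled, against signal in the inter mammary gland region for the 39 detected members (orange) and the other 245 miRNAs detected on both arrays (grey), on log axes in arbitrary intensity units; the solid line marks equal signal and the dashed lines 1.5-fold. All members but mmu-miR-134 and mmu-miR-494 lie between the dashed lines.

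The brightest member on each array was mmu-miR-127, a miRNA antisense to Rtl1. Its signal was 2160 in the gland and 1991 in the flank, a log2 ratio of 0.12 (SE 0.04). The next brightest by the mean of both log2 signals were mmu-miR-410, with 1081 in the gland and 1100 in the flank, and mmu-miR-300, with 1059 and 1121. They were followed by mmu-miR-329, with 1066 in the gland and 1025 in the flank. None of these 4 members was past 1.2-fold in either direction. The other 4 of the 8 brightest members showed the same closeness. mmu-miR-376b gave 1022 in the gland and 1039 in the flank, and mmu-miR-434-3p gave 979 and 969. mmu-miR-379 gave 876 in the gland and 864 in the flank, and mmu-miR-431 gave 699 and 690. mmu-miR-379 is the first member of the Mirg group and mmu-miR-410 the last, so that bright members with ratios of 1.01 and 0.982 stood at both ends.

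By the order of their hairpin genes in the RefSeq annotation, the members fall into groups around Rtl1, Rian and Mirg. The Rtl1 group has 11 members, and 10 of them were detected. Their log2 ratios lay between −0.16 and 0.25 with a median of 0.02, and all 10 were within 1.2-fold. Summed over the group, the signal was 5010 in the gland and 4854 in the flank. The Rian group consists of mmu-miR-341 and mmu-miR-370. mmu-miR-341 gave 116 in the gland and 131 in the flank, a log2 ratio of −0.17 (SE 0.03), and mmu-miR-370 gave 114 and 156, a log2 ratio of −0.45 (SE 0.04). The median of this pair lay below 0 under every alternative, between −0.37 and −0.15, and neither member reached 1.5-fold. The Mirg group is the largest, with 35 members, of which 27 were detected. Their median log2 ratio was 0.02, 23 were within 1.2-fold, and the group held both the lowest log2 ratio of all members, −1.10, and the highest, 0.38. Its summed signal was 11641 in the gland and 11936 in the flank. The medians of the Rtl1 and Mirg groups changed sign with the processing, from −0.05 to 0.18 for the Rtl1 group and from −0.04 to 0.18 for the Mirg group.

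**Figure D2:**
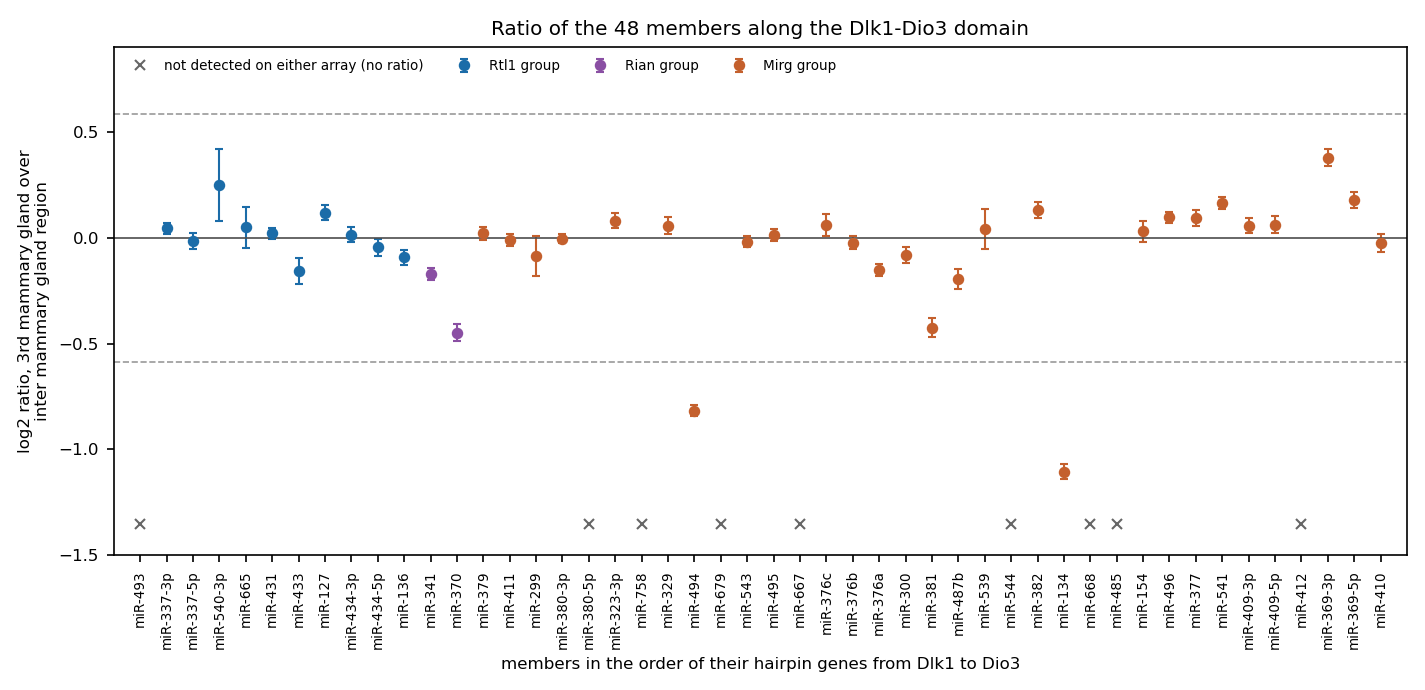
Log2 ratio of the 3rd mammary gland to the inter mammary gland region for each detected member, in the order of the hairpin genes from Dlk1 to Dio3, coloured by position group; bars are SE over spots, dashed lines mark 1.5-fold, and crosses mark the 9 members detected on neither array. mmu-miR-134 and mmu-miR-494 lie apart from neighbours on both sides.

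mmu-miR-134, best known for its control of Limk1 in the dendritic spines of neurons, had the lowest ratio of the members. Its signal was 60.1 (SE 1.38) in the gland and 129 (SE 1.37) in the flank, a ratio of 0.465 and a log2 ratio of −1.10 (SE 0.04). Averaged over its 4 probes it was lower in the gland, by 2.15-fold, and it ranked 16 from the lowest of the 284 miRNAs detected on both arrays. That average includes a probe not detected in the gland. Over the 3 probes detected on both arrays, a choice made after the data were seen, it gave 78.2 and 147, which is 1.88-fold lower and short of 2-fold, a log2 ratio of −0.91 (SE 0.04), and it ranked 19. In bulk tissue, fewer cells that express a miRNA and less of it per cell cannot be told apart. After normexp background correction its log2 ratio was −0.61, and with the brightest probe alone it was −0.64. Under these settings mmu-miR-494 was the lower of the pair, at −0.72 and −0.70, so the lowest rank depended on the processing. The lowest value of mmu-miR-134 under any alternative was −1.17.

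The 4 probes of mmu-miR-134 were all lower in the gland, but by unequal folds. The dimmest probe gave 6.02 in the gland, with 0 of 5 spots above background, and 76.6 in the flank, with 5 of 5 above. Set against the lowest probe signal detected on the gland array, 28.0, that probe was at least 2.73-fold lower in the gland. The second probe gave 33.5 in the gland and 102 in the flank. These dimmer probes had the larger folds. The third probe gave 66.0 in the gland and 129 in the flank, and the brightest gave 135 and 210, which is 1.56-fold lower. The ratio thus went from 0.329 to 0.642 over the 3 probes detected on both arrays, while the difference, flank minus gland, was 70.6, 68.3, 62.6 and 75.4 units from the dimmest probe to the brightest. In each of the 4 probes the highest spot of the gland lay under the lowest spot of the flank. How many other probes of the array had spots apart was not counted. As mmu-miR-134 is shown for its low ratio, the separation describes technical spread only.

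mmu-miR-494 was the other member past 1.5-fold. Its signal was 334 (SE 3.21) in the gland and 589 (SE 8.72) in the flank, a ratio of 0.567 and a log2 ratio of −0.82 (SE 0.03). It was 1.76-fold lower in the gland and ranked 21 from the lowest. Both of its probes showed it. One probe gave 445 in the gland and 722 in the flank, with spots from 422 to 470 against spots from 637 to 793. The other gave 224 and 457, with spots from 204 to 243 against spots from 427 to 489. The spots of the regions did not overlap on either probe, and all 20 spots were above background on each array. How many other probes of the array had spots apart was not counted. As mmu-miR-494 is also shown for its low ratio, the separation describes technical spread only. Under the alternatives its log2 ratio lay between −0.88 and −0.66.

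The hairpins next to these members did not share their ratios. mmu-miR-134 lies between mmu-miR-382 and mmu-miR-154 among the detected members. mmu-miR-382 gave 443 in the gland and 404 in the flank, a ratio of 1.09, and mmu-miR-154 had a ratio of 1.02. mmu-miR-494 lies between mmu-miR-329, with a ratio of 1.04, and mmu-miR-543, with 247 in the gland and 250 in the flank and a ratio of 0.987. The arrays read mature miRNAs, so the level of each hairpin precursor was not measured.

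The next lowest ratios were those of mmu-miR-370 and mmu-miR-381, which ranked 31 and 32 from the lowest of the 284 miRNAs and did not reach 1.5-fold. The probes of mmu-miR-370 gave 73.9 in the gland and 108 in the flank, and 155 and 204. On the dimmer probe the spots of the regions did not overlap, with 80.8 as the highest in the gland and 97.7 as the lowest in the flank. On the brighter probe they overlapped slightly, with 172 as the highest spot in the gland and 171 as the lowest in the flank. Here too, the overlap was not counted over the other probes of the array. mmu-miR-381 gave 143 in the gland and 192 in the flank, a log2 ratio of −0.42 (SE 0.04). Its probes were unlike each other: the brighter gave 252 and 348, a ratio of 0.723, and the dimmer gave 34.2 and 35.8, a ratio of 0.955, with overlapping spots. The fifth lowest ratio was that of mmu-miR-487b, the neighbour of mmu-miR-381, with 313 in the gland and 359 in the flank, a log2 ratio of −0.20 (SE 0.05).

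**Figure D3:**
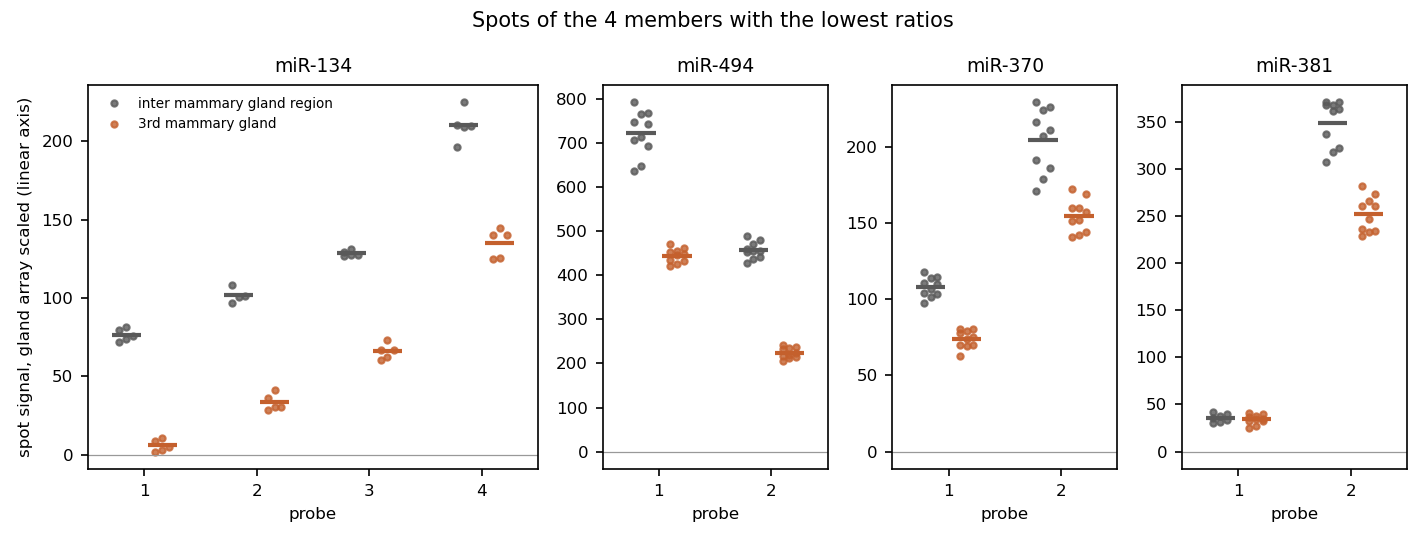
Spot signals in arbitrary intensity units, linear axis, for each probe of the 4 members with the lowest ratios, in the 3rd mammary gland (orange, scaled) and the inter mammary gland region (grey); horizontal bars are means over spots. The spots of the regions are apart on all 4 probes of mmu-miR-134 and on both probes of mmu-miR-494, and overlap on the dimmer probe of mmu-miR-381. These members are shown for their low ratios, and overlap was not counted over the other probes of the array.

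At the other end, mmu-miR-369-3p had the highest ratio of the members. It was read by 1 probe, which gave 89.9 (SE 1.67, 18 spots) in the gland and 69.2 (SE 1.39, 20 spots) in the flank, a log2 ratio of 0.38 (SE 0.04). It stayed under 1.5-fold, and its log2 ratio lay between 0.24 and 0.55 under the alternatives. The opposite arm of the same hairpin, mmu-miR-369-5p, had the third highest ratio, with 232 in the gland and 205 in the flank and a log2 ratio of 0.18 (SE 0.04). mmu-miR-540-3p came between them at 0.25, but its SE was 0.17, and 5 of 20 spots in the gland and 4 of 20 in the flank were above background. mmu-miR-541, with 637 in the gland and 569 in the flank, and mmu-miR-382 completed the 5 highest, with log2 ratios of 0.16 and 0.13. For 18 of the 39 members the log2 ratio was over 2 SE from 0, 8 of them higher and 10 lower with the scaling used. These SE cover the spots of 1 array only, and the same count over all miRNAs is not given. The count is therefore technical and is no result about the members.

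The arms of a hairpin come from the same precursor, so a hairpin with both arms detected gives a pair of ratios. The array carried both arms of 25 hairpins of the domain, counting arms that are not members, and both arms were detected on both arrays for 14. The log2 ratios of the arms differed by a median of 0.12, from 0.01 for Mir409 to 0.34 for Mir431. For mmu-miR-409-3p and mmu-miR-409-5p the log2 ratios were 0.06 and 0.06. For mmu-miR-434-3p and mmu-miR-434-5p they were 0.01 and −0.05, and for mmu-miR-337-3p and mmu-miR-337-5p they were 0.04 and −0.02. Other hairpins differed more, by 0.20 for Mir369 and Mir411 and by 0.17 for Mir154 and Mir376a. Arms of different hairpins were not compared in this way. The quartiles of all detected members spanned only 0.15, so a small difference between arms is not particular to them. One arm of Mir431 was dim: mmu-miR-431* gave 16.6 in the gland and 13.0 in the flank, with an SE of 0.12 on its log2 ratio. For mmu-miR-134 and mmu-miR-494 the array carried 1 arm each, so this comparison could not be made for them.

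The mature sequences of 45 of the 48 members were found by name in the RefSeq table for build GRCm38.p6. Older names without an arm were read as the arm that they stood for, which could not be checked against the probes, as the files do not give probe sequences. A miRNA recognizes its targets mainly through the seed, bases 2 to 8 counted from the 5′ end. The 45 members had 45 different seeds, so none shared a seed with another member. The members with the lowest ratios and the member with the highest are shown here because the ratios turn on them, 5′ to 3′, with the seed in capitals.
mmu-miR-134: uGUGACUGguugaccagagggg
mmu-miR-494: uGAAACAUacacgggaaaccuc
mmu-miR-370: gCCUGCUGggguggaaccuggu
mmu-miR-381: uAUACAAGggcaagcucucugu
mmu-miR-369-3p: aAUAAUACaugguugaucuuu

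Some members are close relatives in sequence. The nearest pair is mmu-miR-381 and mmu-miR-300, which are neighbours in the domain and differ at 3 of 22 bases, 1 of them in the seed. Their log2 ratios were −0.42 and −0.08, a difference of 0.34. mmu-miR-376a and mmu-miR-376b also differ at 3 of 21 bases, 1 in the seed, with log2 ratios of −0.15 and −0.02. mmu-miR-379 and mmu-miR-411, which lie side by side, differ at 1 base of the seed and at 7 of 21 bases in all. Their log2 ratios were 0.02 and −0.01. The probes of an array can bind close relatives, and how far these probes do so was not measured. The first and the last of these pairs are shown with the seed in capitals.
mmu-miR-300: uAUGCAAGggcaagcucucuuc
mmu-miR-381: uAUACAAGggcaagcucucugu
mmu-miR-379: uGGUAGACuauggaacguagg
mmu-miR-411: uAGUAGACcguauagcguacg

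The 4 members with the lowest ratios each hold a run of at least 3 G, written GGG, which was noticed after the values were seen. Of the 37 detected members with a sequence, 7 (18.9%) hold GGG, against 514 of all 1679 mature mouse sequences in the table (30.6%). The other 3 of the 7, mmu-miR-433, mmu-miR-300 and mmu-miR-541, had log2 ratios of −0.16, −0.08 and 0.16, inside the range of the 30 members without GGG, −0.17 to 0.38. The run sits at different places, at the 3′ end of mmu-miR-134, in the middle of mmu-miR-494 and from the last base of the seed onward in mmu-miR-370 and mmu-miR-381, and mmu-miR-541, with GGG in its seed, was among the 5 highest ratios. Among the other detected miRNAs of the domain with a sequence looked up, mmu-miR-3072*, mmu-miR-299* and mmu-miR-431* also hold GGG. Their log2 ratios were −0.82, −0.01 and 0.36. For mmu-miR-1193 and mmu-miR-1906, with log2 ratios of 0.27 and 0.04, no sequence was looked up. The whole array was not searched for GGG, because 60 of the 284 detected miRNAs (21.1%) had a sequence under the same name. No test was made of a sequence chosen in this way, and the runs are a description only. The 7 sequences are shown with the runs of G in capitals.
mmu-miR-134: ugugacugguugaccagaGGGG
mmu-miR-494: ugaaacauacacGGGaaaccuc
mmu-miR-370: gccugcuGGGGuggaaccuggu
mmu-miR-381: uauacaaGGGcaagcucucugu
mmu-miR-433: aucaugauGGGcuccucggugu
mmu-miR-300: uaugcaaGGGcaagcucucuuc
mmu-miR-541: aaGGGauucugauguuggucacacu

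The base composition of detected and undetected members overlapped. The median GC content was 45.5% for the 37 detected members with a sequence, from 23.8% to 68.2%, and 55.5% for the 8 undetected ones, from 36.4% to 66.7%. Over all mature sequences of the table it was 52.2%. The range of the undetected members lay within that of the detected ones, and the medians were not tested.

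The array carried 32 other miRNAs whose hairpins lie between Dlk1 and Dio3, among them the opposite arms of members' hairpins. Of these, 14 were detected in the gland, 13 in the flank and 13 on both arrays, and the median log2 ratio of the 13 was 0.04. The brightest was mmu-miR-299*, with 627 in the gland and 632 in the flank. One was past 1.5-fold, mmu-miR-3072*, with 47.8 (SE 1.08) in the gland and 84.6 (SE 0.944) in the flank, 1.77-fold lower on average over its 2 probes. Of these, the probe detected on both arrays gave 68.7 and 110, which is 1.60-fold lower. The other gave 26.9 in the gland, with 5 of 10 spots above background and so not detected there, and 59.2 in the flank, at least 2.11-fold lower in the gland. mmu-miR-485* was the 1 miRNA detected in the gland alone, at 4.74 with 5 of 20 spots above background, a signal too low for a bound on its ratio.

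The miRNAs of the Sfmbt2 cluster, another large imprinted miRNA cluster, which is expressed from the paternal chromosome, were taken as the families miR-297, miR-466, miR-467 and miR-669. Of 41 on the array, 11 (26.8%) were detected on both arrays, with a median log2 ratio of −0.13 that changed sign with the scaling (from −0.19 to 0.03), and none was past 1.5-fold. Of these 11, 9 (81.8%) were within 1.2-fold and the quartiles spanned 0.17, against 87.2% and 0.15 for the members. The brightest was mmu-miR-669f, with 253 in the gland and 282 in the flank. The mesenchymal miR-199 and miR-214, 5 mature miRNAs in all, had a median log2 ratio of 0.26, above 0 under every alternative, and mmu-miR-199a-3p gave 15687 in the gland and 12585 in the flank.

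The regions also differed in miRNAs that mark cell types, and striated muscle moved in the same direction as mmu-miR-134 and mmu-miR-494. All 4 muscle miRNAs (miR-1, miR-133a, miR-133b and miR-206) were lower in the gland by 1.5-fold or more, with a median log2 ratio of −1.24. Their summed signal was 1504 in the gland and 3610 in the flank, and the brightest, mmu-miR-133b, gave 652 and 1562. Muscle miRNAs were thus detected in both regions at unequal levels, and the part of muscle in the ratios of mmu-miR-134 and mmu-miR-494 was not tested. Muscle miRNAs were 4 of the 15 miRNAs with a lower ratio than mmu-miR-134 averaged over all its probes. Over its 3 probes detected on both arrays, mmu-miR-134 ranked 19 from the lowest, so that count depends on the probes used. The other 11 of the 15, with log2 ratios from −4.91 to −1.25, were on none of the marker lists. They included mmu-miR-2134 (−4.91), mmu-miR-2138 (−3.59), mmu-miR-1224 (−3.58), mmu-miR-2135 (−2.45), mmu-miR-1897-5p (−2.31) and mmu-miR-188-5p (−2.08). Each of these named miRNAs had a lower ratio than any muscle miRNA. Their part in the ratios of mmu-miR-134 and mmu-miR-494 was not tested. Of the 3 neural miRNAs, miR-9 and miR-124 were detected on neither array, and mmu-miR-128 gave 132 in the gland and 195 in the flank, a log2 ratio of −0.57, short of 1.5-fold, and of −0.63, past 1.5-fold, when every spot of a probe had to be above background. The summed neural signal was 149 in the gland and 202 in the flank, and its part was not tested.

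With the scaling used, markers of the other cell types did not pass 1.5-fold. Under other settings mmu-miR-200a reached a log2 ratio of 0.67 and mmu-miR-451 one of 0.79, past 1.5-fold. The 7 epithelial miRNAs, the miR-200 family with miR-203 and miR-205, were all detected, with a median log2 ratio of 0.34, from −0.31 to 0.51. Their summed signal was 10010 in the gland and 9530 in the flank, and the brightest, mmu-miR-205, gave 4874 and 4947. Epithelial miRNAs were thus detected on both arrays. The 3 mesenchymal markers on the array (no miRNA named mmu-miR-199b was on it; mmu-miR-199b*, with a log2 ratio of 0.07, was not a marker on the list) summed to 25243 in the gland and 20691 in the flank, with mmu-miR-199a-3p as the brightest. The 5 blood miRNAs summed to 5675 in the gland and 4331 in the flank, with a median log2 ratio of −0.06 that changed sign with the scaling (from −0.12 to 0.10) and with mmu-miR-451, at 5192 and 3822, as the brightest. The part of these cell types in the members' ratios was not tested.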

How the data were processed

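miRNAs of the Dlk1-Dio3 domain were compared between 1 array of the 3rd mammary gland and 1 of the inter mammary gland region. The authors quantified the arrays with Feature Extraction 10.7.3.1 and deposited a background-subtracted intensity per spot, linear and not normalized between arrays. Outlier spots were left out, spots were averaged per probe and probes per miRNA, and the gland array was scaled by a 75th percentile, taken over probes that both arrays detected. The members, lists and rules were chosen with earlier results of these data known. Named members were the 8 brightest, the 5 highest and 5 lowest ratios, those past 1.5-fold or detected on 1 array, both arms of a hairpin, and shared seeds; others were named after their values were seen. Hairpin order and sequences came from RefSeq, build GRCm38.p6; the array's own build differs, so no coordinates were used. The steps were tested on simulated spots. Alternatives covered scaling, signal, background (normexp, offset 50), detection, dim miRNAs, outliers, probes, floor and threshold. Python 3.11.15, numpy 2.4.6, pandas 2.3.3, matplotlib 3.10.9, R 4.3.3 and limma 3.58.1 were used.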

Additional observations from a re-analysis of the deposited data

How the results depend on the processing

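No paired analysis was possible because 1 array was hybridized for each region. No member was higher by the fold threshold under any of 14 alternatives (1 of them, the use of only those probes detected on both arrays, chosen after seeing the data), and mmu-miR-134 and mmu-miR-494 were lower under 13 of them; at a threshold of 2-fold the count was 1, mmu-miR-134, by the construction of the threshold. Members detected on both arrays numbered 41 by the scanner software's own call, 38 when every spot of a probe was required, 35 with dim miRNAs left out and 39 with outlier spots kept. The median log2 ratio of the members was 0.14 with no scaling, 0.17 with a 75th percentile over all probes and 0.13 with the median of the detected probes. These settings change only 1 factor for the gland array, so by construction all miRNAs moved alike. The members' median was 0.083 with quantile normalization and −0.047 when every spot of a probe was required. It was 0.11 with the total signal of the software or the deposited table, which holds the same values and was counted once. The median of all miRNAs moved with that of the members. When every spot of a probe was required, the ratio of a miRNA still detected changed only through the factor, by construction. The median of all miRNAs then moved by −0.061. For the other settings that changed more than the factor the cause was not tested. Relative to the median of all miRNAs, chosen after seeing the data, the members' median was −0.090 with quantile normalization, and the cause was not tested. Of 263 values of 24 named members, 155 moved by more than 1 SE over spots (122 up, 33 down), 0 crossed the fold threshold, and 43 changed sign. These counts include the settings that change only 1 factor for the gland array. Such a setting moves every member alike, so its values are not separate changes. After normexp 3 miRNAs of the array were higher and 19 lower. Signal over background limits the 7 detected members with spots at background, and the 9 undetected members have no ratio.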
